A study of Homo sapiens with 4 samples.

Results

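The genes described here encode the subunits of the proteasome, with its chaperones and activators. They are the 41 genes with PSMA1 to PSMA7, PSMB1 to PSMB10, PSMC1 to PSMC6, PSMD1 to PSMD14 or PSME1 to PSME4 as their symbol, out of 23622 genes in the deposited table. The rule that picks them uses gene symbols and no measured values, and 36 of them are referred to below as standard genes. The other 5 are the immunoproteasome catalytic subunits PSMB8, PSMB9 and PSMB10 and the PA28 activator subunits PSME1 and PSME2. All 41 were in the table, and all 41 passed the filter on low values, which asked for a normalized count of 10 or more in 2 or more of the 4 libraries.

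RNA was sequenced from MV4-11, a line of human acute myeloid leukemia cells with an MLL fusion and an internal tandem duplication in FLT3. One group was NC (n = 2), labelled as wild-type MV4-11 with treatment none, although the columns of the table name it as a control hairpin. The other was sh-IRF1 (n = 2), labelled as wild-type MV4-11 with knockdown of IRF1, an interferon-regulated transcription factor. The study's methods describe lentiviral hairpins in the pLKO.1 vector followed by puromycin selection. Each library comes from bulk cells of a single cell line. Whether the NC cells were also infected and selected is not settled by the labels and column names. Which hairpin each sh-IRF1 library carried is not given in the sources used here, nor whether replicates were separate cultures, so the p-values measure only the spread between these samples, which may be technical.

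The proteasome degrades proteins that carry ubiquitin chains. Its barrel-shaped core has outer rings of alpha subunits, which gate the entrance, and inner rings of beta subunits, of which PSMB5, PSMB6 and PSMB7 cut peptide bonds. A regulatory particle binds the end of the barrel: its base holds the PSMC ATPases that unfold substrates, and its lid holds the deubiquitinase PSMD14. In interferon-treated and hematopoietic cells PSMB8, PSMB9 and PSMB10 can take the places of PSMB5, PSMB6 and PSMB7, and PSME1 and PSME2 form the PA28 cap. This form is known for shaping the peptides shown on MHC class I, and its genes are textbook targets of interferon signaling.

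Because IRF family proteins bind repeats of GAAA, the RefSeq promoter windows (GRCh38.p14, 250 bases before to 50 bases after each start) were searched on both strands for GAAA followed by any 2 bases and a further GAAA, which reads TTTC, any 2 bases and TTTC on the other strand. These letters occurred in 3.57% of 35116 windows and, counted by gene, in 4.38% of 27305 genes. Of the 41 proteasome genes, 36 had a window, and 6 of these held a match: 4 of 5 immunoproteasome and PA28 genes and 2 of 31 standard genes, PSMA4 and PSMB4. The window of PSMB9 held none, but its neighbor TAP1, whose RefSeq start lies 488 bp away on the other strand, held 2 overlapping matches in the stretch between both starts. The stretches around the matches are shown with the matching letters in capitals, each read 5′ to 3′ on the strand of its gene, since 4 of the 5 immunoproteasome and PA28 genes hold one near their start.
PSMB8, chr6:32844032-32844061, minus strand: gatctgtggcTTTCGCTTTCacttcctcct
TAP1, chr6:32853816-32853845, minus strand: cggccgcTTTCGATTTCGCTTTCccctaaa
PSMB10, chr16:67936852-67936881, minus strand: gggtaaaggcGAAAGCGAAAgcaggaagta
PSME1, chr14:24136189-24136218, plus strand: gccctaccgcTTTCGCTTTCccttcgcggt
PSME2, chr14:24146619-24146648, minus strand: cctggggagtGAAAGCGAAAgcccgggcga
PSMA4, chr15:78540155-78540184, plus strand: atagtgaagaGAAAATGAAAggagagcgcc
PSMB4, chr1:151399495-151399524, plus strand: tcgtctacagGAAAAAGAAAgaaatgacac

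In PSMB8, PSMB10, PSME1 and PSME2 the matches lay close to the RefSeq start, the farthest beginning at base -28 (PSME2), whereas that of PSMB4 began at base -68 and that of PSMA4 at base -240. A match is a description of these letters and not a binding site. Over all tested genes with a window, 25.6% of the 406 genes with a match and 23.6% of the 9727 genes without one were called lower in sh-IRF1. Their median log2 fold changes were -0.0085 and -0.00083, so genes with and without the letters differed little in this respect.

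The targeted gene was checked first. IRF1 had a normalized count of 785 and 738 in the NC libraries and of 429.7 and 432 in the sh-IRF1 libraries, or -0.82 as log2 fold change (SE 0.0904, adjusted p = 1.69e-10, limma). Both sh-IRF1 libraries were below both NC libraries, while 22.9% of its exonic bases also belong to other genes. The cells carried the markers of a myeloid leukemia, with SPI1, CD33, FLT3, MEIS1, HOXA9, LYZ, MPO and CSF1R (8 of 8) all above a mean of 171 in both groups. Their levels moved with the knockdown: MPO stood at 37.3% of the NC mean (log2 fold change -1.42), FLT3 at 72.9% (-0.46) and CSF1R at 87.8% (-0.19), and LYZ stood at 179.9% (0.85) and SPI1 at 112.8% (0.17), all called by limma, while CD33, MEIS1 and HOXA9 were not called. The part of this shift in the proteasome values was not tested. Of markers of other cell types CD8A and COL1A1 reached at most 6.16, whereas NCAM1 (mean 1097 in NC and 1108 in sh-IRF1) and PECAM1 (1279 and 3149) were expressed, and CD3E, EPCAM and CDH1 were not analysed here. Each value is an average over a bulk sample, so fewer cells of a type and less RNA per cell cannot be told apart.

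Across the whole family the change was small and ran in both directions, by part of the particle. Of the 36 standard genes, 12 were called lower and 6 higher in sh-IRF1, and 18 were not called. Of the 5 immunoproteasome and PA28 genes, 4 were called lower and 0 higher, and PSMB9 was not called. A call is an adjusted p under 0.05 from limma at any fold, fitted over 14120 genes. Among all of them 21.9% were called lower and 20.3% higher, so 42.2% were called in either direction. The 33.3% of standard genes called lower and the 16.7% called higher stand beside that background. The median log2 fold change of the standard genes was -0.016, against -0.34 for the 5 other genes and -0.0019 for all genes tested. By role, the medians of the standard genes ran from -0.40 (alpha ring) to 0.14 (base ATPases). The normalized counts of the 36 standard genes summed to 67908 ± 1258 (SD, n = 2) in NC and 65872 ± 929.8 (SD, n = 2) in sh-IRF1, whereas those of the 5 genes stood at 78.0% of the NC mean. With a log2 fold change beyond 0.5 as a further condition, which 7.56% of all genes met downward and 8.27% upward, 1 standard gene (PSMA4) and 1 of the 5 (PSME2) were lower, and 0 members were higher.

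These calls rest on a spread estimated over all genes, since an exact two-sided permutation test of 2 against 2 libraries cannot give a p below 0.33. Without the trend and robust settings limma called 2 standard genes lower (PSMA4 and PSMA5) and 0 higher, and 1 of the 5 lower (PSME2). Under that setting 1245 of all 14120 genes tested were called higher and 1282 (9.08%) lower. Leaving out NC replicate 2 or sh-IRF1 replicate 1 cut the standard genes called higher from 6 to 2 and 3, and leaving out sh-IRF1 replicate 2 cut those called lower from 12 to 7. When libraries were scaled to their totals, the median of the standard genes was 0.029 and that of all genes 0.043.

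**Figure D1:**
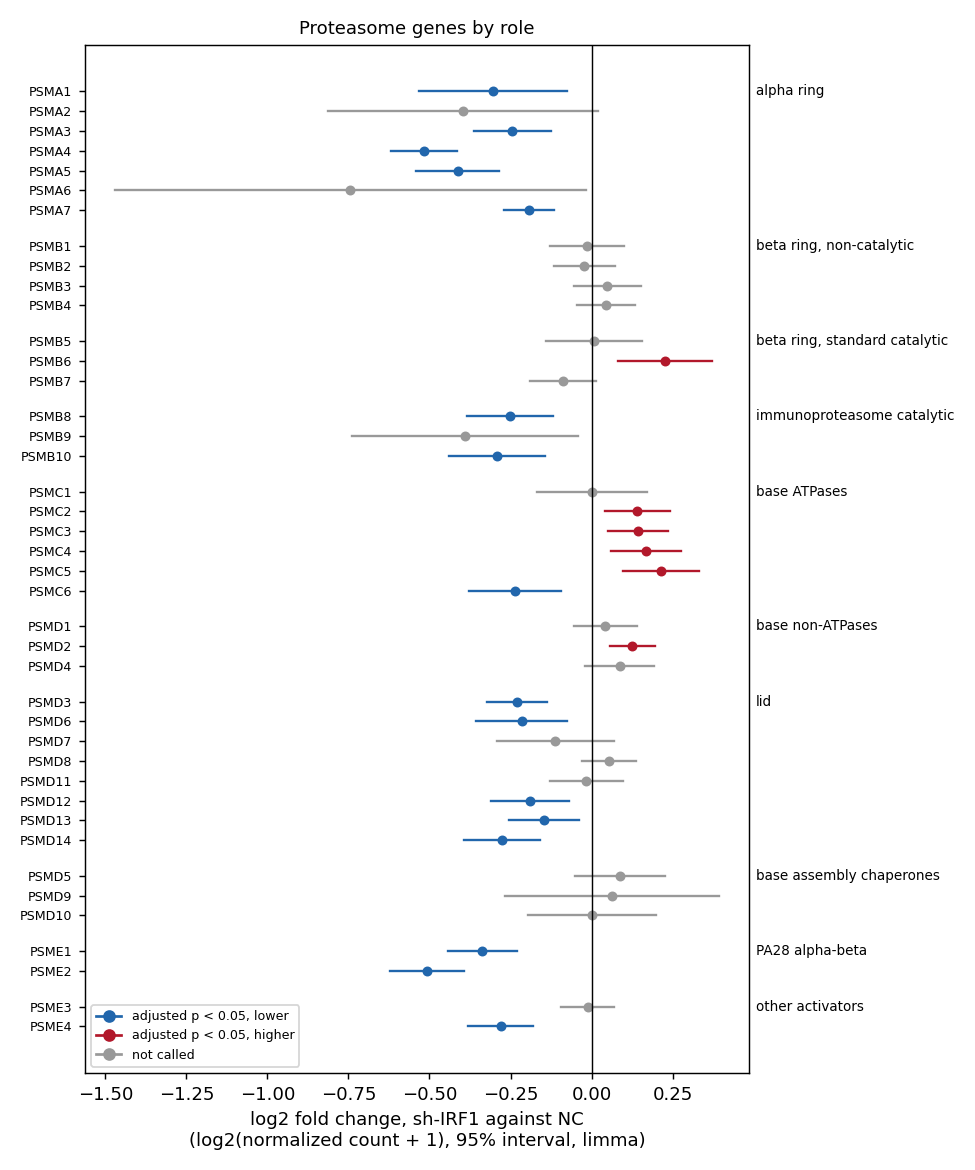
Log2 fold change (sh-IRF1 against NC, on log2(normalized count + 1)) of the 41 proteasome genes by role, with 95% intervals from limma, n = 2 per group; blue marks genes called lower, red higher and grey not called. The alpha ring, the immunoproteasome catalytic subunits and PA28 lie to the left of 0, the non-catalytic beta subunits lie on 0, and 4 of 6 base ATPases lie to the right.

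PSME2 and PSME1, which assemble the PA28 cap that opens the gate of the core, had the lowest sum of any role group, 75.2% of the NC mean. PSME2 (ENSG00000100911, chromosome 14) had normalized counts of 1812 and 1797 in NC and of 1282 and 1256 in sh-IRF1. Its log2 fold change was -0.51 (SE 0.0572, adjusted p = 3.03e-10, limma), and the call held under all 13 alternative settings and with a minimum fold. PSME1 (ENSG00000092010), which lies 4394 bp away on the same chromosome, had 2312 and 2132 in NC and 1795 and 1721 in sh-IRF1. It fell by 0.34 on the log2 scale (SE 0.0528, adjusted p = 6.96e-07, limma). For both genes the replicates lay close together and the groups were well apart. The other activators differed from each other. PSME4, the large single-chain cap known for acetylated histones, had 2382 and 2512 in NC and 1971 and 2060 in sh-IRF1 (log2 fold change -0.28, SE 0.0497, adjusted p = 7.58e-06, limma), so it also fell. PSME3, the nuclear homolog of PSME1 and PSME2, had 4830.5 and 4504 in NC and 4800.5 and 4456 in sh-IRF1. Its groups overlapped, with a log2 fold change of -0.012 and a 95% interval from -0.094 to 0.069.

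The catalytic subunits of the immunoproteasome summed to 82.4% of the NC mean. PSMB8, the chymotrypsin-like subunit that replaces PSMB5, had 1561 and 1319.8 in NC and 1179.7 and 1231 in sh-IRF1. Its log2 fold change was -0.25 (SE 0.0663, adjusted p = 0.00165, limma), and both sh-IRF1 libraries were below both NC libraries, but the NC libraries were farther apart than NC replicate 2 was from sh-IRF1. Without NC replicate 1 the value was -0.13 (adjusted p = 0.173, limma), and the call was lost. PSMB10, the trypsin-like subunit that replaces PSMB7, had 992 and 1045 in NC and 799.7 and 864 in sh-IRF1. It fell by 0.29 on the log2 scale (SE 0.0729, adjusted p = 0.000946, limma), with no overlap of the groups. PSMB9, which replaces PSMB6, had 174 and 175 in NC and 121 and 145 in sh-IRF1. Its log2 fold change of -0.39 was larger in size than those of PSMB8 and PSMB10, but with fewer counts the SE was 0.173 and it was not called (adjusted p = 0.064, limma, 95% interval from -0.74 to -0.043).

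Reads of some of these genes could be split with neighbors, because the counting tool and its use of strand are not given in the sources used here. PSMB8 shares 17.3% of its exonic bases with PSMB8-AS1 and PSMB9, and PSMB10 shares 39.4% with ENSG00000261884 on its own strand. PSMB8-AS1 had 113 and 138 in NC and 118 and 89.9 in sh-IRF1. ENSG00000261884 had 28.7 and 31.8 in NC and 35.8 and 37.5 in sh-IRF1. Both were far below PSMB8 and PSMB10. Since the counting tool is not given, these values cannot show whether reads on shared bases were dropped. Without the genes that share over 10% of their exonic bases or have abundant pseudogenes, the remaining genes of the 5 were PSMB9, PSME1 and PSME2, of which 2 were called lower.

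The standard catalytic subunits in the same positions of the ring summed to 101.3% of the NC mean. PSMB5, the target of bortezomib, had 1035 and 907 in NC and 1016 and 935 in sh-IRF1, and its groups overlapped (log2 fold change 0.0084, 95% interval from -0.14 to 0.16). PSMB7 had 2032 and 2075 in NC and 1971 and 1894 in sh-IRF1, without overlap, and its log2 fold change of -0.088 was not called (adjusted p = 0.169, limma). PSMB6 had 1118 and 931 in NC and 1169.8 and 1216 in sh-IRF1, and was called higher by 0.23 (SE 0.0717, adjusted p = 0.00915, limma). NC replicate 2 was the low library here. Without it the value was 0.093 (adjusted p = 0.374), without sh-IRF1 replicate 2 it was 0.20 (adjusted p = 0.128), both from limma, and without NC replicate 1 it was 0.36.

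**Figure D2:**
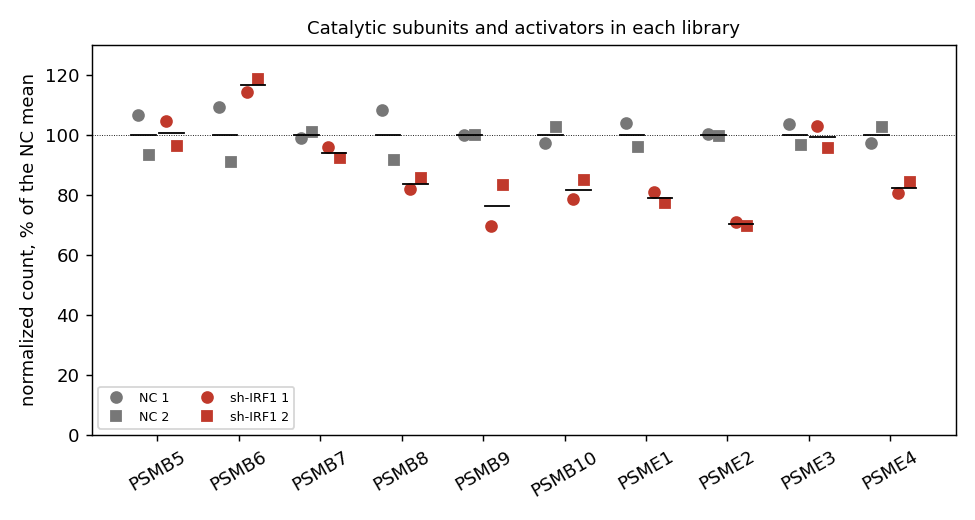
Normalized count of the catalytic subunits and activators in each library, as a percentage of the NC mean of the same gene; circles are replicate 1 and squares replicate 2 of NC (grey) and sh-IRF1 (red), and black lines are group means (n = 2). Both sh-IRF1 libraries are below both NC libraries for PSMB8, PSMB9, PSMB10, PSME1, PSME2 and PSME4 and, by a smaller margin, for PSMB7, above them for PSMB6, while PSMB5 and PSME3 overlap.

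The balance within each ring position was read from the ratio of the immunoproteasome subunit to its standard counterpart, each as normalized count per kilobase of exon. PSMB8 to PSMB5 was 0.671 and 0.648 in NC and 0.517 and 0.586 in sh-IRF1. PSMB10 to PSMB7 was 0.537 and 0.554 in NC and 0.447 and 0.502 in sh-IRF1. PSMB9 to PSMB6 was far lower, 0.0679 and 0.0817 in NC and 0.0453 and 0.0521 in sh-IRF1. Per kilobase of all annotated exons, PSMB8 and PSMB10 transcripts stood at over 40% of their counterparts in these MV4-11 libraries, and PSMB9 transcripts below 10%. With the length of the longest transcript the NC means were 0.70, 0.50 and 0.056 in this order. These levels depend on the length used: uncorrected, the NC mean of PSMB8 (1441) was above that of PSMB5 (971). Uncorrected NC means were 1018 for PSMB10 beside 2053 for PSMB7, and 174 for PSMB9 beside 1024 for PSMB6. Shared exonic bases, 17.3% in PSMB8 and 39.4% in PSMB10, make the levels of these genes less certain. All 3 ratios were lower in both sh-IRF1 libraries, with log2 differences of -0.26, -0.20 and -0.62 in this order and SDs between replicates of 0.0939, 0.0872 and 0.167. For each of the 3 ratios the exact two-sided permutation test over the 4 libraries gave p = 0.33, the smallest it can give, so it cannot call them.

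In the alpha ring every gene lay below NC. The 7 genes summed to 80.9% of the NC mean, with a median log2 fold change of -0.40. All 7 had both sh-IRF1 libraries below both NC libraries, which held for 35.0% of all genes tested (34.2% had both above). Of the 7 genes 5 (71.4%) were called lower, beside 21.9% of all genes tested. PSMA4 had 2561 and 2418 in NC and 1757 and 1722 in sh-IRF1, which is -0.52 as log2 fold change (SE 0.0507, adjusted p = 6.47e-12, limma). It had the smallest p of all 41 genes and, like PSMA5, kept its call under all 13 alternative settings, though PSMA5 is not beyond the log2 fold change of 0.5. PSMA5 had 1473 and 1358 in NC and 1070.3 and 1053 in sh-IRF1 (-0.41, adjusted p = 5.42e-07, limma). PSMA3 fell from 1555 and 1536 to 1326 and 1284 (-0.24, adjusted p = 0.000653, limma). PSMA7, the most abundant of the ring, fell from 4809.9 and 4759 to 4095 and 4274 (-0.19, adjusted p = 4.55e-05, limma). In both genes the replicates differed by less than the groups did.

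The remaining alpha genes had fewer counts or shared reads. PSMA1, with 436 and 381 in NC and 325 and 334 in sh-IRF1, was called lower by the full fit (-0.30, adjusted p = 0.0269, limma). That call was lost without NC replicate 1 (-0.21), sh-IRF1 replicate 1 (-0.28) or sh-IRF1 replicate 2 (-0.32), and 26.7% of its exonic bases also belong to another gene. PSMA2, with 133 and 115 in NC and 82.6 and 107 in sh-IRF1, was not called (-0.40, adjusted p = 0.122, limma), and 29.7% of its exonic bases overlap other genes. PSMA6 had the largest log2 fold change of the family, -0.74, on the fewest counts, 43.1 and 44.2 in NC and 31.8 and 20.6 in sh-IRF1, and was not called (SE 0.36, adjusted p = 0.0929, limma). Its pseudogene PSMA6P1 had 7.18 and 5.14 in NC and 8.95 and 20.6 in sh-IRF1, the highest in the library in which PSMA6 was lowest. Of the exonic bases of PSMA6, 14.1% also belong to another gene on its strand. Whether reads were split between PSMA6, that gene and PSMA6P1 was not tested.

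The beta subunits without catalytic sites had values near their NC level, with narrow intervals. PSMB1, PSMB2, PSMB3 and PSMB4 had log2 fold changes from -0.023 to 0.048, 0 of 4 were called, and their sum was 101.1% of the NC mean. Over all genes tested 42.2% were called in either direction. PSMB4 had 3104 and 2881 in NC and 3114 and 3055 in sh-IRF1, with a 95% interval of its log2 fold change from -0.045 to 0.13. PSMB2 had 2680 and 2659 in NC and 2548 and 2711 in sh-IRF1, with an interval from -0.12 to 0.071. PSMB3 had 1948 and 1872 in NC and 1977 and 1972 in sh-IRF1, just above, with an interval from -0.056 to 0.15. The PSMB1 libraries overlapped as well, and its sign turned with the scaling (-0.014 as deposited, 0.030 with libraries scaled to their totals). The outer and inner rings of the core thus had different values in the same libraries, 80.9% for the alpha ring and 101.1% for these beta genes.

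**Figure D3:**
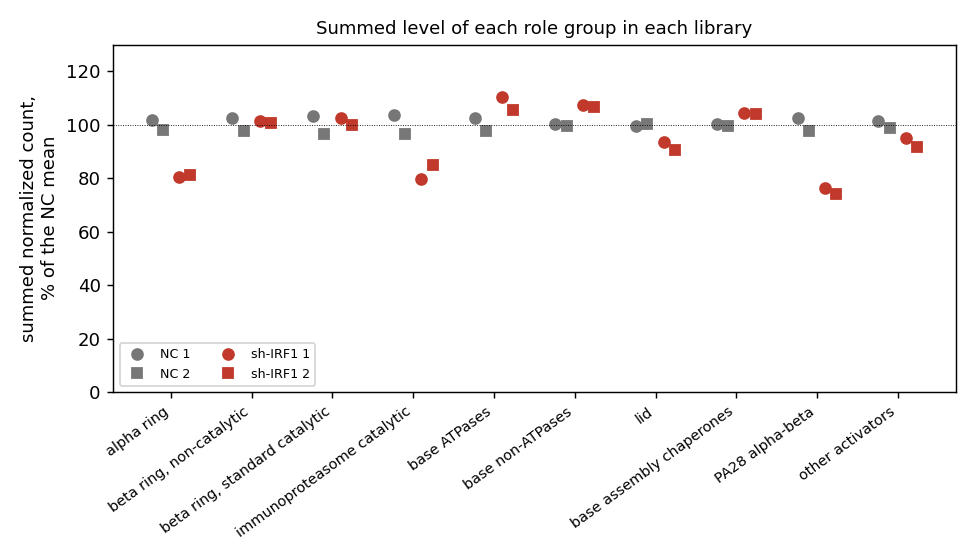
Summed normalized count of each role group in each library, as a percentage of the NC mean of that group; circles are replicate 1 and squares replicate 2 of NC (grey) and sh-IRF1 (red). The sh-IRF1 libraries average 80.9% for the alpha ring, 82.4% for the immunoproteasome catalytic subunits, 75.2% for PA28 and 108.1% for the base ATPases.

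In the base of the regulatory particle most calls ran upward. Among the 6 ATPases, which form the ring that pulls substrates into the core, 4 (66.7%) were called higher, 1 lower and 1 was not called. Over all genes tested 20.3% were called higher and 21.9% lower. Without the trend and robust settings 0 standard genes were called higher, beside 1245 of all 14120 genes tested. The 6 ATPases summed to 108.1% of the NC mean. PSMC5 had 1545 and 1405 in NC and 1719 and 1699 in sh-IRF1, which is 0.21 as log2 fold change (SE 0.0578, adjusted p = 0.0022, limma). Of its exonic bases 15.3% overlap FTSJ3 on the other strand. PSMC2, PSMC3 and PSMC4 were called higher by 0.14, 0.14 and 0.17. PSMC6 went the other way, from 1044 and 1127 in NC to 949.9 and 891 in sh-IRF1 (-0.24, adjusted p = 0.00526, limma). PSMC1 was not called (0.0011), and 76.1% of its exonic bases overlap NRDE2 on the other strand, which had 533 and 553 in NC and 602 and 616 in sh-IRF1.

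Each of these ATPase calls depended on single libraries. Without NC replicate 2 the values were 0.15 for PSMC5, 0.11 for PSMC2, 0.068 for PSMC4 and -0.18 for PSMC6, and none of the 4 was called. Without sh-IRF1 replicate 1, PSMC2 (0.087), PSMC3 (0.098) and PSMC4 (0.17) lost their calls, and without sh-IRF1 replicate 2 so did PSMC4 (0.16) and PSMC6 (-0.19). Without NC replicate 1 PSMC4 was at 0.27. Of the base subunits that are not ATPases, the scaffold PSMD2 had 5531 and 5554 in NC and 6066 and 6028 in sh-IRF1. It was called higher by 0.13 (SE 0.0348, adjusted p = 0.00281, limma), and leaving out any 1 library gave values from 0.12 to 0.13. The scaffold PSMD1 (0.042) and the ubiquitin receptor PSMD4 (0.086) were not called.

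The lid, which removes ubiquitin chains before degradation, summed to 92.0% of the NC mean. Of its 8 genes 5 (62.5%) were called lower and 0 higher, beside 21.9% and 20.3% of all genes tested. The median log2 fold change of the lid genes was -0.17, against -0.0019 for all genes tested. PSMD14, the deubiquitinase, had 1605 and 1714 in NC and 1389.6 and 1348 in sh-IRF1, which is -0.28 as log2 fold change (SE 0.0583, adjusted p = 0.000107, limma). PSMD3 had 2920.4 and 3117 in NC and 2580.3 and 2566 in sh-IRF1 (-0.23, SE 0.0456, adjusted p = 4.61e-05, limma). In both genes the groups did not overlap. PSMD6 (-0.22), PSMD12 (-0.19) and PSMD13 (-0.15) were also called lower.

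Several lid calls rested on single libraries. Without sh-IRF1 replicate 2 PSMD6 (-0.20), PSMD12 (-0.14) and PSMD13 (-0.097) lost their calls, as PSMD12 did without NC replicate 1 (-0.15) and PSMD13 without NC replicate 2 (-0.11). PSMD8 was slightly above NC in both libraries, with 3392 and 3350.5 in NC and 3527 and 3466 in sh-IRF1 (0.053, 95% interval from -0.031 to 0.14). PSMD7 was the lid gene with the widest spread in sh-IRF1, with 720.1 and 765 in NC and 778 and 606 in sh-IRF1, and was not called (-0.11), but was called lower without sh-IRF1 replicate 1 (-0.29), and 31.2% of its exonic bases overlap another gene on the other strand. PSMD11 overlapped between groups (-0.017). The base assembly chaperones PSMD5, PSMD9 and PSMD10, which hold ATPases before they join the ring, had log2 fold changes of 0.087, 0.062 and 0.00063. Of these genes 0 of 3 were called, beside 42.2% of all genes tested in either direction. PSMD5 had 1066 and 1019 in NC and 1162 and 1055 in sh-IRF1, so its groups overlapped.

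**Figure D4:**
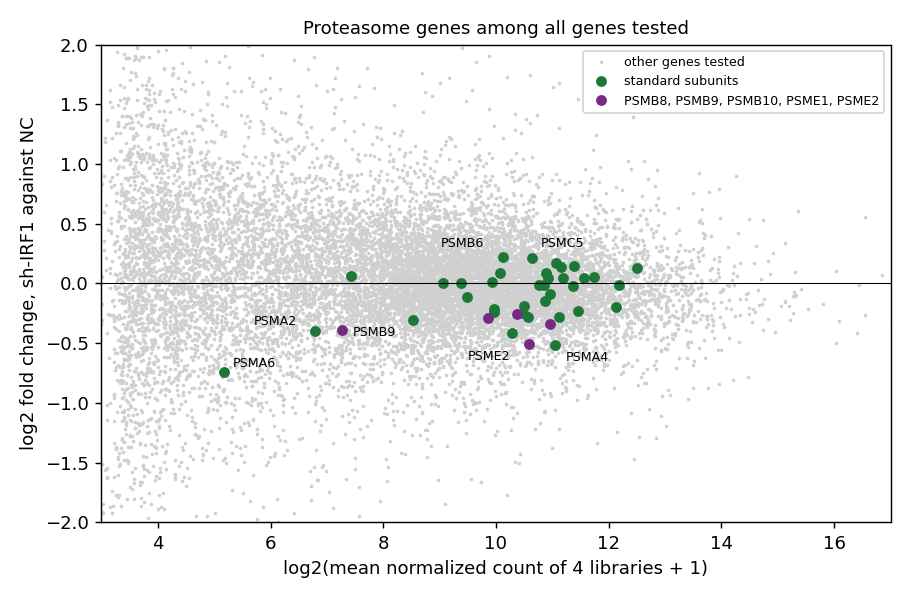
Log2 fold change (sh-IRF1 against NC) against log2(mean normalized count over 4 libraries + 1) for all 14120 genes tested (grey), the 36 standard genes (green) and the 5 immunoproteasome and PA28 genes (purple); 142 genes lie outside the plotted range of 2 in either direction. The 5 genes all lie below 0, the standard genes lie on both sides, and PSMA6 and PSMA2 are the standard genes with the lowest counts.

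Per kilobase of exon, the proteasome genes covered a wide range in NC. The standard genes ran from 6.71 normalized counts per kilobase for PSMA6 to 2731 for PSMA7, with a median of 350.3. The 5 other genes ran from 52.3 for PSMB9 over 414 for PSMB8, 504 for PSME2 and 626 for PSMB10 to 1251 for PSME1. PSMB9 was thus the lowest of the 5, while the values of PSMA6 and PSMA2 (14.8) were low among the ring genes they assemble with. Of their exonic bases 14.1% in PSMA6 and 29.7% in PSMA2 also belong to other genes, so these 2 levels are uncertain. Whether the way reads were counted made them low was not tested. Not corrected for length, 36 of the 41 genes were above the median mean of all genes tested, 413. By position, 7 members lie on chromosome 14, and 4 of these (PSMA3, PSMC6, PSME1 and PSME2) were called lower, 0 higher. Over all 441 genes tested on chromosome 14, 20.4% were called lower, and their median was -0.019.

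PSMA8, a germ-cell alpha subunit that is not among the 41 genes, had 178 and 193 in NC and 122 and 119 in sh-IRF1. It fell by 0.62 on the log2 scale (SE 0.173, adjusted p = 0.00306, limma). PSMB11 was not analysed here.

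Around the proteasome, 39 further genes were listed by function, of which 12 (30.8%) were called lower and 11 (28.2%) higher, beside 21.9% and 20.3% of all genes tested. The assembly factors and associated enzymes carried most of the lower calls, 9 of 16 with 2 higher, and their median was -0.24. USP14, a deubiquitinase that docks on the base, had 2447 and 2645 in NC and 1206 and 1222 in sh-IRF1, and at 47.7% of the NC mean was the lowest of these 39 genes. Its log2 fold change was -1.07 (SE 0.0548, adjusted p = 2.12e-21, limma). UCHL5, the other deubiquitinase of the base, fell by 0.67. PSMG1 (-0.53), PSMG2 (-0.76) and PSMG3 (-0.37), which build the alpha ring, were called lower, and so was POMP (-0.29), which matures the core. PSMG4 was at -0.28 and not called. ADRM1, the ubiquitin receptor that recruits UCHL5, was called higher (0.19), with 17.2% of its exonic bases shared. PSMF1, an inhibitor of the core, had 2006 and 1992 in NC and 2188 and 2455 in sh-IRF1 and was called higher (0.21, SE 0.0522, adjusted p = 0.000752, limma), but not without sh-IRF1 replicate 2 (0.13). FBXO7, TXNL1 and ECPAS were the other genes called lower, by log2 fold changes of -0.21, -0.17 and -0.31.

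NFE2L1, the transcription factor that restores proteasome genes when the particle is inhibited, had 3676 and 3507 in NC and 3394 and 3514 in sh-IRF1. Its groups overlapped (log2 fold change -0.056, 95% interval from -0.14 to 0.028). Of the genes that process it, NGLY1, which strips its glycans, had 694 and 674 in NC and 896 and 922 in sh-IRF1 (0.41, SE 0.0772, adjusted p = 2.02e-05, limma). DDI2, the protease that cleaves NFE2L1, was also called higher (0.16). Of the list of 5 with NFE2L1 itself 2 were thus higher and 0 lower, beside 20.3% and 21.9% of all genes tested. The core of the antioxidant response element that NFE2L1 binds, TGACNNNGC with its reverse complement GCNNNGTCA, occurred in 13.3% of all windows (16.1% of genes). It occurred in 13 of the 36 proteasome genes with a window, 10 of 31 standard genes and 3 of the 5 others. Over all tested genes with a window, 23.7% of the 1984 with a match and 23.6% of the 8149 without one were called lower. The shares called higher were 24.3% and 21.4%. A match describes these letters, and binding of NFE2L1 was not tested.

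Among p97 and the ubiquitin shuttles, which bring substrates to the proteasome, 3 of 9 were lower and 2 higher. These shares of 33.3% and 22.2% stand beside 21.9% and 20.3% of all genes tested. RAD23B, a shuttle with a ubiquitin-like domain, had 3678 and 3684 in NC and 1985 and 2065 in sh-IRF1 (-0.86, SE 0.0452, adjusted p = 4.53e-21, limma). Both sh-IRF1 libraries were far below both NC libraries. NPLOC4, a cofactor of p97, had 3081 and 3005 in NC and 3511 and 3686 in sh-IRF1 and was called higher (0.24, adjusted p = 6.69e-06, limma), while VCP itself, which is p97, was not called (0.011).

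Peptides from the immunoproteasome go on to the MHC class I loading pathway. Of the 9 genes listed around it, 5 (55.6%) were called higher and 0 lower, beside 20.3% and 21.9% of all genes tested. CALR, a chaperone of the loading complex, had 10409.7 and 10437 in NC and 17960.4 and 17577 in sh-IRF1 (0.77, SE 0.0275, adjusted p = 2.13e-27, limma). TAPBP (0.54), B2M (0.38), ERAP1 (0.37) and NLRC5 (0.18) were also called higher. The peptide transporter TAP1, whose start lies next to that of PSMB9, had 374 and 399.5 in NC and 383 and 405 in sh-IRF1. Its groups overlapped, and its log2 fold change was 0.026 (95% interval from -0.19 to 0.25), beside -0.39 for PSMB9. TAP2 (-0.070) and ERAP2 (-0.13, 95% interval from -0.33 to 0.058) were not called. Of the exonic bases 21.0% in TAPBP, 10.2% in ERAP1, 14.2% in TAP1 and 19.5% in TAP2 overlap other genes, so their reads are uncertain in part.

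**Figure D5:**
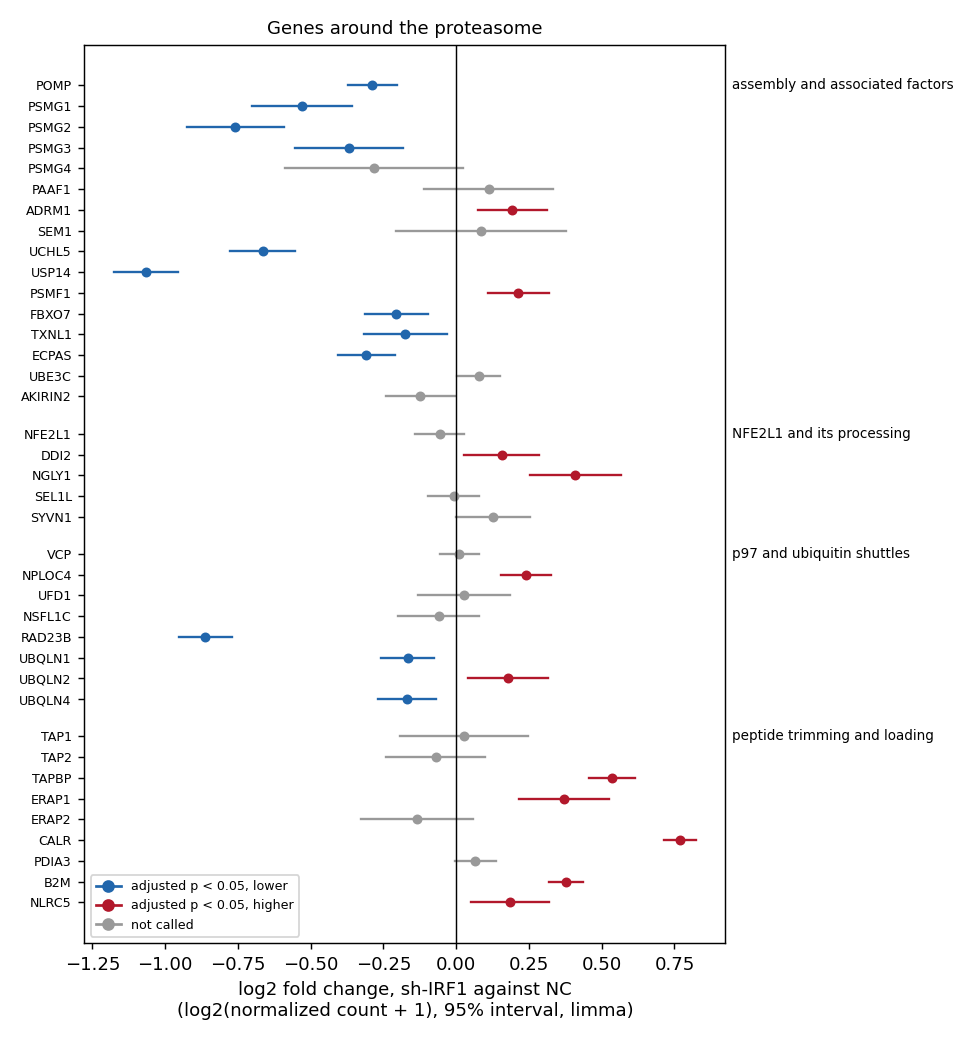
Log2 fold change (sh-IRF1 against NC, on log2(normalized count + 1)) of 38 of the 39 genes around the proteasome by function, with 95% intervals from limma, n = 2 per group; blue marks genes called lower, red higher and grey not called. USP14 (-1.07) and RAD23B (-0.86) lie farthest to the left, and CALR (0.77) and TAPBP (0.54) farthest to the right.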

How the data were processed

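Illumina TruSeq libraries of total RNA from MV4-11 cells were sequenced. Per the labels and the submitters' processing notes, HISAT2 2.0.5 and hg38 were used. According to the study's methods, the authors used DESeq2 for differential expression. The counting tool, gene models and strand setting are not given in the sources used here. The deposited values are a signal, called normalized count here: the authors scaled each gene's reads by a library factor, as read from the values, which are whole multiples of 1 step in each library. They are not raw counts. The 4 columns matched the 4 libraries, with 0 other columns. Values summed to between 17516965 and 18130136 per library, mitochondrial genes took 3.92% to 4.51%, and the depth in reads was not used in any test between groups.

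Genes at 10 or more in 2 or more libraries entered the test, and log2(value + 1) was tested with limma 3.58.1 (R 4.3.3, trend and robust), NC against sh-IRF1, with Benjamini-Hochberg adjustment over 14120 genes. The scale understates changes of low genes. With n = 2 a gene's own spread is known poorly, and limma's prior had 43 degrees of freedom. If 1 step of the values is taken as 1 read, replicates differed by more than sampling noise (chi-square per gene 2.52 in NC and 2.37 in sh-IRF1). Ratios were tested with exact permutations.

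Symbols matched 23456 identifiers. Positions and shared exonic bases came from GENCODE 44 on GRCh38, and promoters from RefSeq. Named with full values were IRF1, PSMB5 to PSMB10, PSME1, PSME2, TAP1 and, in each list, the smallest p in either direction and, among member groups, the largest fold change. The other genes given with values, among them PSMA1, PSMA2, PSMA3, PSMA5, PSMA7, PSMD7 and PSMA8, and the counts by chromosome were added after their values were seen. Values of 1 listed gene are not reported here. The members and lists were chosen with earlier results of these data known. Scripts were tested on simulated data. Alternatives covered scaling, filter, pseudocount, variance model, minimum fold, replicate block, left-out libraries and, added after seeing the data, leaving out genes with uncertain reads.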

Additional observations from a re-analysis of the deposited data

How the results depend on the processing

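With a log2 fold change beyond 0.5 as a condition, 1168 genes were called higher and 1067 lower, 0 standard genes higher and 1 lower, 1 of the 5 immunoproteasome and PA28 genes lower, and 2 of the pathway genes higher and 5 lower. Without trend and robust settings limma called 1245 and 1282 genes, 0 and 2 standard genes, 1 of the 5 lower, and 4 and 4 pathway genes. With genes of uncertain reads left out, an alternative chosen after seeing the data, 2 of the remaining immunoproteasome and PA28 genes were lower and 7 pathway genes higher. Leaving out each library gave 2053 to 2679 genes higher and 2445 to 2723 lower, 2 to 6 standard genes higher and 7 to 12 lower, 3 to 4 of the 5 lower, and 8 to 9 pathway genes higher and 9 to 12 lower. The medians ran from -0.068 to -0.00054 for standard genes and from -0.39 to -0.26 for the 5. The log2 ratios ran from -0.35 to -0.17 (PSMB8 to PSMB5), -0.75 to -0.48 (PSMB9 to PSMB6) and -0.29 to -0.12 (PSMB10 to PSMB7).

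Scaling to library totals, which moved the median of all genes to 0.043 and the lower share of calls from 51.9% to 43.5%, turned the median of the standard genes to 0.029 and uncalled genes to 0.030 (PSMB1), 0.022 (PSMB2), 0.028 (PSMD11) and 0.032 (PSME3). It left 10 standard genes lower and 7 higher, since PSMA1 (-0.26) and PSMD13 (-0.10) lost their calls and PSMD4 (0.13) gained one. TMM turned PSMC1 to -0.0039 and PSMD10 to -0.0043, and upper-quartile scaling to -0.0017 and -0.0021. The uncalled genes whose sign turned with a library left out ranged from -0.082 to 0.054 (PSMB1), -0.067 to 0.022 (PSMB2), -0.0090 to 0.099 (PSMB4), -0.087 to 0.10 (PSMB5), -0.066 to 0.068 (PSMC1), -0.29 to 0.067 (PSMD7), -0.047 to 0.17 (PSMD9), -0.12 to 0.12 (PSMD10), -0.098 to 0.065 (PSMD11), -0.066 to 0.041 (PSME3) and -0.021 to 0.072 (TAP1). The cause was not tested.

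Whether libraries with the same replicate number were prepared together is not given in the sources used here. Across genes, their deviations from the group means had a correlation of -0.015, which cannot show that they were prepared apart. The fit with the replicate block called 2903 genes higher and 3147 lower and kept the direction and call of 52 of 52 named genes. With a minimum value of 50, PSMA6 had no value. The planned edgeR and DESeq2 tests were not run: 1 step of the values in sh-IRF1 replicate 1 was 0.995, too close to 1 for the rule used here to accept that the deposited values hold recoverable reads. PSME2, PSMA4, PSMA5, PSMA8, USP14, RAD23B, NGLY1, CALR and IRF1 kept their calls under all 13 alternative settings of scaling, filter, pseudocount, variance model, block and left-out library. The minimum fold, which is not among them, ends the calls of PSMA5 and NGLY1. With 2 libraries per group, small differences and genes with few counts, such as PSMA6, PSMA2 and PSMB9, are those the data can least settle.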
